A study of Mus musculus with 4 samples.

Results

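The replication-dependent histone genes supply the core histones and the linker histone H1 that package newly made DNA. They were taken as the protein_coding genes of the GENCODE basic annotation of mm10 whose symbols begin with Hist1h, Hist2h, Hist3h or Hist4h, which gave 67 of 21951 protein_coding genes. Of these, 54 belong to the Hist1 cluster on chromosome 13, 10 to Hist2 on chromosome 3, 2 to Hist3 on chromosome 11 and 1 to Hist4 on chromosome 6. By class, 18 encode H2A, 18 H2B, 13 H4, 12 H3 and 6 H1. Every peak reaching from 2000 bp before to 1000 bp after one of their transcript starts was collected, a stretch called the window below.

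MIZ-1, encoded by Zbtb17, is a zinc finger transcription factor with an amino-terminal POZ domain. Its binding was mapped by chromatin immunoprecipitation and sequencing (ChIP-seq) in mouse B220+ splenocytes, which are spleen cells of the B lineage, with the Miz-1 antibody H-190. MIZ-1WT cells carry the full protein. MIZ-1DPOZ cells come from MB1-cre X Miz-1floxedPOZ mice, in which a Cre recombinase driven from the Cd79a (Mb1) promoter removes the POZ domain in B cells. The mice were on the C57BL/6 background and were 40 to 70 days old. Each genotype had 1 ChIP library and 1 input library, so no test between genotypes was possible, and every difference below describes these libraries. The peak lists hold no expression values and no reads, so neither the B cell identity nor the deletion was checked from them.

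The histone genes of these clusters lie close together and lack introns in most cases. They are transcribed when DNA is copied, and their messages end in a stem-loop instead of a poly(A) tail. The clustered copies of a class encode nearly the same protein and share most of their coding bases, whereas the stretches in front of them differ. A short read from a coding sequence can therefore match several genes, and the counts in the peaks below depend on how such reads were placed, which is not given in the sources used here.

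The sequences under the strongest summits are shown first because nearly every summit lay in such a shared stretch. For H3, the 90 bases around the highest MIZ-1DPOZ summit, in Hist1h3d, are set beside the same coding positions of a Hist1 and a Hist2 gene. They are read 5′ to 3′ along the coding strand of GRCm38, the same assembly as mm10, and capitals mark bases that differ from the first line.
Hist1h3d (chr13:23575899-23575988, + strand): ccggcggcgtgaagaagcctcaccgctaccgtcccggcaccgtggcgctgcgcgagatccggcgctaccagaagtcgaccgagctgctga
Hist1h3e (chr13:23562179-23562268, - strand): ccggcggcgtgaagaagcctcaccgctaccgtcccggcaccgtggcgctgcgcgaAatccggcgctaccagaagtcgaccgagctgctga
Hist2h3b (chr3:96268791-96268880, + strand): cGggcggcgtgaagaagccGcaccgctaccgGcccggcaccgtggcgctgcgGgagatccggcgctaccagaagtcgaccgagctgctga
Hist1h3h and Hist1h3b hold the same 90 bases as Hist1h3d, with 0 differences, and Hist2h3c2 holds the same bases as Hist2h3b. The Hist1h3e line differs from Hist1h3d at 1 base and the Hist2h3b line at 4.

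For H2A, the 90 bases around the highest MIZ-1DPOZ summit, in Hist1h2ap, were the same in Hist1h2ao, Hist1h2ag and Hist1h2ac. The line of Hist1h2an differs at 1 base, in capitals.
Hist1h2ap (chr13:21833254-21833343, - strand): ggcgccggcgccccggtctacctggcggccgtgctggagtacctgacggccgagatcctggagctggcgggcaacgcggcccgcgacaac
Hist1h2an (chr13:21786997-21787086, - strand): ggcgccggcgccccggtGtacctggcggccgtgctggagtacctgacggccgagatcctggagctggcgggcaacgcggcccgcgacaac
The only H4 summit lay in Hist1h4b. Its 90 bases are the same in Hist1h4a, and they are shown beside 2 genes without a summit, Hist1h4d with 1 difference and Hist2h4 with 4. H4 copies also share most of their bases (median identity 93.9% between coding sequences, 97.1% for H3). Of the 13 H4 genes, 1 (7.69%) had a MIZ-1DPOZ summit of its own, near the 10.6% of all protein_coding genes.
Hist1h4b (chr13:23757160-23757249, + strand): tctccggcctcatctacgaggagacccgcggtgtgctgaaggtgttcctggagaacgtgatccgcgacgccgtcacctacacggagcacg
Hist1h4d (chr13:23581741-23581830, + strand): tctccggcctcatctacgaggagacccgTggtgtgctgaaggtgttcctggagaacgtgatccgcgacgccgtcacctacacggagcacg
Hist2h4 (chr3:96263076-96263165, - strand): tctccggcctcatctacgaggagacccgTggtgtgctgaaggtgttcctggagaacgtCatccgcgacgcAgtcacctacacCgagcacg

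The lists held 34209 peaks for MIZ-1WT and 78357 for MIZ-1DPOZ, with median pileups, the fragments stacked over a summit, of 9 and 12. The MIZ-1DPOZ ChIP library was 1.34 times deeper. Pileups and the local background around each peak were solved from the deposited scores. Intervals given below are 95% intervals. Those of single ratios cover the counting of fragments only. Those of shares and of the median take genes, peaks or pairs as independent. None covers differences between libraries of the same genotype.

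In the histone windows there were 13 MIZ-1WT peaks and 36 MIZ-1DPOZ peaks. They touched 18 of the 67 genes (26.9%, Wilson interval 17.7 to 38.5) in the MIZ-1WT list and 47 (70.1%, 58.3 to 79.8) in the MIZ-1DPOZ list. Among all protein_coding genes, 30.9% had a MIZ-1WT window peak and 48.7% a MIZ-1DPOZ window peak. The histone share was thus near the background for MIZ-1WT and above it for MIZ-1DPOZ. Of the 67 genes, 18 (26.9%) had peaks in both lists, beside a background of 26.6%. These were all 18 genes of the MIZ-1WT list. Among all protein_coding genes, 5848 of the 6777 with a MIZ-1WT peak also had a MIZ-1DPOZ peak. A further 29 genes (43.3%) had a MIZ-1DPOZ peak only, where the background was 22.0%, and 0 had a MIZ-1WT peak only, where it was 4.23%. The other 20 genes (29.9%) had no peak in either list. Among all protein_coding genes, those outside the 26.6%, 22.0% and 4.23% had none, which is a larger share than among the histone genes. These counts run over genes whose windows overlap: 8 of 13 MIZ-1WT peaks and 25 of 36 MIZ-1DPOZ peaks touched more than 1 histone gene, up to 3.

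The peaks lay over the coding sequences and not in front of the genes. The summit fell in a histone coding sequence for 12 of 13 MIZ-1WT peaks (92.3%) and 32 of 36 MIZ-1DPOZ peaks (88.9%), whereas 14.9% and 18.7% of the window peaks of other protein_coding genes had their summit in any coding sequence. Coding summits lay 128 to 271 bp after the transcript start in the MIZ-1WT list (median 166) and 105 to 623 bp after it in the MIZ-1DPOZ list (median 198). A histone transcript start was covered by 1 MIZ-1WT peak and by 5 MIZ-1DPOZ peaks. Counted by gene, 12 of the 67 had a MIZ-1WT summit in their own coding sequence and 32 a MIZ-1DPOZ summit, against backgrounds of 4.96% and 10.6% of all protein_coding genes. Coding bases made up 23.8% of the histone windows and 6.47% of the windows of other genes.

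**Figure D1:**
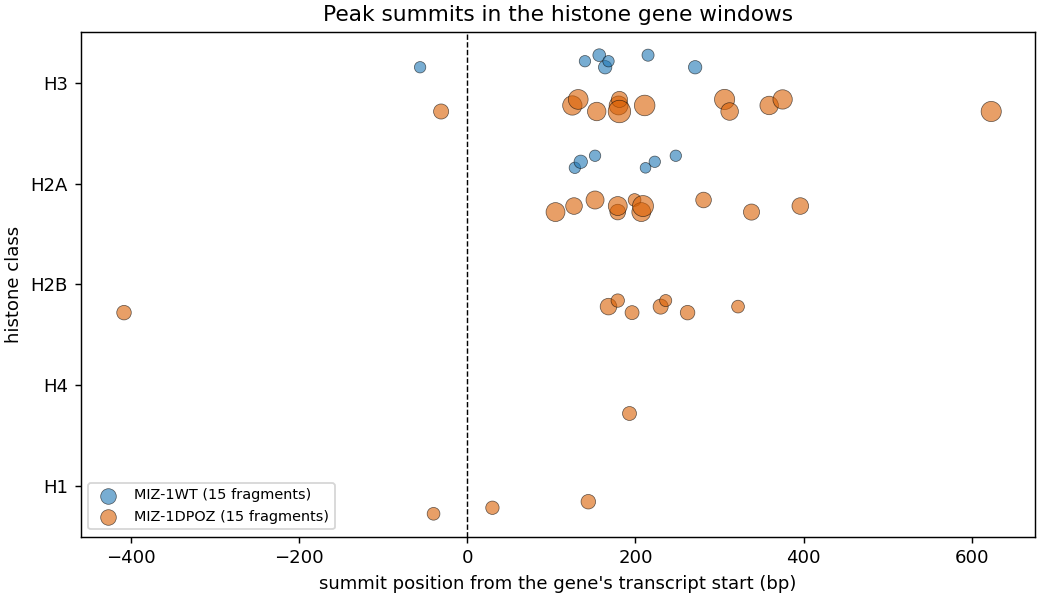
Position of each peak summit in the histone windows, in bp from the transcript start of the gene it lay in or nearest to (horizontal axis), by histone class (vertical axis), with circle area proportional to the fragments over the summit. The coding summits of both lists sit to the right of the start, from 105 to 623 bp, and 3 MIZ-1DPOZ and 1 MIZ-1WT summits sit before it.

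H3 forms the inner core of the nucleosome together with H4, and its genes carried the most and the highest peaks. All 12 H3 genes had a MIZ-1DPOZ summit in their own coding sequence, and 6 had a MIZ-1WT summit there. In the MIZ-1DPOZ list these pileups ran from 16 to 31 fragments with a median of 23, and the deposited fold enrichment from 7.24 to 11.1. In the MIZ-1WT list they ran from 8 to 11 fragments, with folds from 4.80 to 6.45. The highest MIZ-1DPOZ peak of the windows was that of Hist1h3d (chr13:23575817-23576147), with 31 fragments and a fold of 10.3. Hist2h3b had 26 fragments, Hist1h3b and Hist1h3f 25 each, and the lowest H3 gene, Hist1h3a, had 16. The H3 range therefore began above the pileup of every H4 and H1 peak, since Hist1h4b had 12 fragments and Hist1h1c 13.

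The MIZ-1WT peaks of H3 were led by Hist1h3b (chr13:23752401-23752731), with 11 fragments, a fold of 6.45 and a −log10 q of 6.03. Hist1h3g also had 11 fragments (fold 6.12) and Hist1h3e had 10 (fold 5.91). Hist2h3c2 had 9, and Hist1h3h and Hist1h3d had 8 each, near the median of 9 over all MIZ-1WT peaks. The first 3 of these 6 genes were left when −log10 q or fold was limited to 5 or more, whereas all 12 MIZ-1DPOZ summits were kept. H3 coding summits of the MIZ-1DPOZ list lay at bases 122 to 310 of the coding sequence, with a median of 164.5. Those of the MIZ-1WT list lay at bases 30 to 159, with the lowest in Hist2h3c2 and the others from base 130. Bases 98 to 187, the stretch printed above, held 8 of the 12 MIZ-1DPOZ and 5 of the 6 MIZ-1WT summits, so the summits of different H3 genes fell largely in the same part of the coding sequence. The summit at base 310 was that of Hist2h3c1, whose annotated coding sequence has 543 bases, where Hist2h3b and Hist2h3c2 have 408. Its base numbers may therefore not line up with those of the other H3 genes.

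H2A and H2B make up the dimers at the outer faces of the nucleosome. Of the 18 H2A genes, 6 had a MIZ-1WT summit in their own coding sequence and 11 a MIZ-1DPOZ summit. The MIZ-1DPOZ pileups ran from 10 to 27 with a median of 17. Hist1h2ap led with 27 fragments (chr13:21833126-21833470, fold 9.42), followed by Hist1h2ag, Hist1h2ac and Hist1h2ao with 22 each. At Hist1h2ao the local background was 4.84 fragments, the highest of the windows, and the fold was 3.94, whereas Hist1h2ag and Hist1h2ac had a fold of 9.79 at the same pileup. In the MIZ-1WT list Hist1h2af was highest (chr13:23533995-23534164) with 11 fragments and a fold of 5.94. Hist1h2ap, Hist1h2an, Hist1h2ad and Hist1h2ai had 8 each and Hist2h2aa1 had 7. With −log10 q or fold limited to 5 or more, Hist1h2af was the 1 gene left of these 6.

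Of the H2B genes, 0 of 18 had a MIZ-1WT summit in their own coding sequence and 7 had a MIZ-1DPOZ summit, with 9 to 17 fragments (median 12). The backgrounds over all protein_coding genes were 4.96% and 10.6%. The count of 7 was 2 at a −log10 q of 5 or more, and 1 either at a fold of 5 or more or when the MIZ-1DPOZ list was shortened to the length of the other, where Hist1h2bc was left. Hist1h2bq had 17 at a local background of 4.05 (fold 3.57), Hist1h2bc 14 (fold 6.39), Hist1h2br 13 and Hist1h2bj 9. A further 7 H2B genes were touched only by peaks with summits elsewhere. Hist1h2bf, for example, shared the windows of the Hist1h3d and Hist1h2ad peaks, and Hist1h2bh that of the Hist1h3f peak. H2B thus had a MIZ-1DPOZ peak in the window of 14 of 18 genes (77.8%, Wilson interval 54.8 to 91.0). H2A had one in 12 (66.7%, 43.7 to 83.7), and 48.7% of all protein_coding genes had one. The 2 intervals overlap widely. H2B had fewer and lower summits of its own than H2A.

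Most H2A and H2B genes stand back to back. In 12 such pairs the starts lay 176 to 306 bp apart, and 0 summits of either list fell in the stretch between them. In the MIZ-1DPOZ list, 5 pairs had a coding summit on both sides, 3 on the H2A side only, 1 on the H2B side only and 3 on neither. In all 5 pairs with both, the H2A pileup was the higher: 22 against 14 fragments at Hist1h2ac and Hist1h2bc, 22 against 9 at Hist1h2ag and Hist1h2bj, 22 against 17 at Hist1h2ao and Hist1h2bq, 27 against 13 at Hist1h2ap and Hist1h2br, and 15 against 11 at Hist1h2ai and Hist1h2bl. The 1 pair with an H2B summit only was Hist1h2ae and Hist1h2bg, where Hist1h2bg had 12.

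H4 genes nearly all lacked a summit of their own. Of 13, 0 had a MIZ-1WT summit and 1 had a MIZ-1DPOZ summit, Hist1h4b (chr13:23757081-23757307), with 12 fragments and a fold of 5.53. These shares were 0% (Wilson interval 0 to 22.8) and 7.69% (1.37 to 33.3). They were near the backgrounds of 4.96% and 10.6% of all protein_coding genes, so the lack was not particular to H4. Hist1h4m, Hist1h4n, Hist1h4i and Hist1h4a were touched only by peaks with summits in Hist1h2ao, Hist1h2bq, Hist1h2ap, Hist1h2br, Hist1h2ag or Hist1h3a. The remaining 8, among them Hist2h4 and Hist4h4, had no window peak in either list. In all, 1 of 13 had a MIZ-1WT and 5 a MIZ-1DPOZ window peak, beside 30.9% and 48.7% of all protein_coding genes. Median copies of the coding sequence were 4 for H4 and 6.5 for H3, and the part of copies in the difference between these classes was not tested.

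H1 binds the linker DNA where it enters and leaves the nucleosome, and its genes are the least alike. No H1 window held a MIZ-1WT peak (0 of 6), and 4 held a MIZ-1DPOZ peak, beside 30.9% and 48.7% of all protein_coding genes. Hist1h1c had 13 fragments (chr13:23738811-23739153, fold 5.96, summit at base 104 of the coding sequence). Hist1h1e had 11 fragments with its summit 30 bp after the start, in the untranslated part of its exon. Hist1h1t, the testis linker histone, had 10 fragments with its summit at −40 bp from the start. Hist1h1a was touched only by the Hist1h3a peak, and Hist1h1b and Hist1h1d had no window peak. The annotated starts of Hist1h1d and Hist1h2be lie far from their coding sequences, which their windows do not reach, and 0 peaks of either list had a summit there. These pileups lay near the median of 12 of the whole MIZ-1DPOZ list. The other testis genes, Hist1h2aa and Hist1h2ba, which stand back to back at the end of the Hist1 cluster, had no peak in either list.

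The other summits outside a coding sequence were at Hist2h3c1, where peaks of both lists lay just before the start (8 fragments at −56 bp for MIZ-1WT, 14 at −31 bp for MIZ-1DPOZ), and at −408 bp from the start of Hist1h2bm. The latter peak, with 13 fragments and a fold of 5.03, lay in Hist1h2aj (chr13:21721457-21721808), annotated as an unprocessed pseudogene of H2A, and its summit sequence was present in 12 copies in the genome. This summit too was therefore in an H2A sequence.

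**Figure D2:**
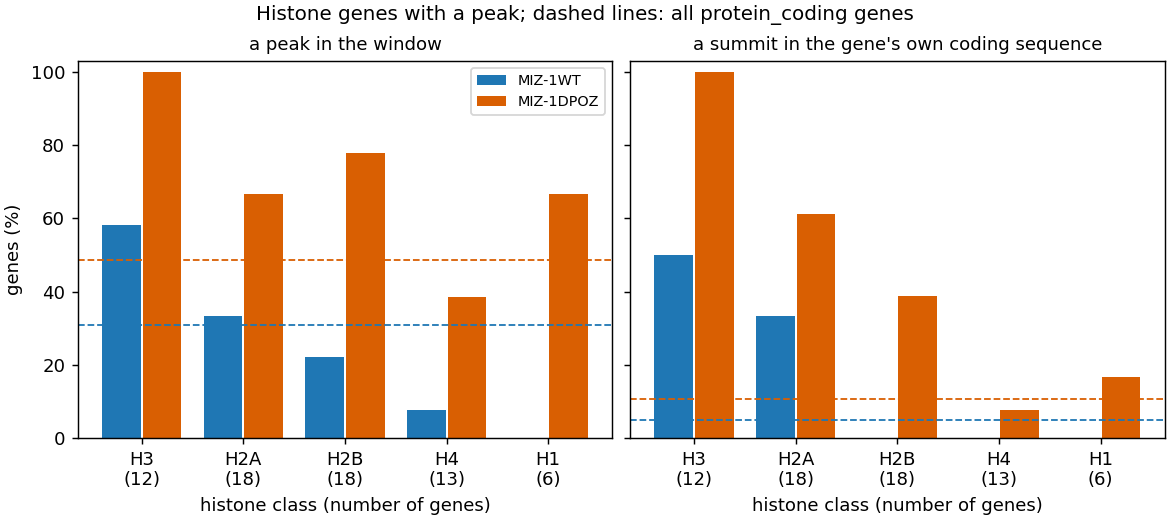
Percentage of genes of each histone class (number of genes in brackets) with any peak in the window (left) and with a summit in the gene's own coding sequence (right), for MIZ-1WT and MIZ-1DPOZ. Dashed lines give the same percentage over all 21951 protein_coding genes. H3 stands highest in both panels, with 100% for MIZ-1DPOZ, and H4 lies below the dashed lines in the left panel.

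The Hist1 cluster falls into a first part of 23 genes (chr13:21715763-22043676) and a second part of 31 (chr13:23531050-23934851). In the first, 8 genes had a MIZ-1WT and 18 a MIZ-1DPOZ window peak, and in the second 7 and 23. Over the whole of Hist1 the shares were 27.8% and 75.9%, beside 30.9% and 48.7% of all protein_coding genes. Coding summits of the MIZ-1DPOZ list were found in 13 and 14 genes. Peaks of both lists were thus spread over both parts.

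In the Hist2 cluster, 3 of 10 genes (30%, Wilson interval 10.8 to 60.3) had a MIZ-1WT window peak and 6 (60%, 31.3 to 83.2) a MIZ-1DPOZ window peak. Both intervals include the backgrounds of 30.9% and 48.7% of all protein_coding genes. The 5 with a MIZ-1DPOZ summit in their own coding sequence were the 3 H3 genes, Hist2h3b with 26 fragments, Hist2h3c1 with 23 and Hist2h3c2 with 21, and the identical H2A genes Hist2h2aa1 with 17 and Hist2h2aa2 with 16. Hist2h2bb was touched only by the Hist2h3b peak. Hist2h2ab, Hist2h2ac, Hist2h2be and Hist2h4 had no window peak in either list. Nor had Hist3h2a and Hist3h2ba of the Hist3 cluster, or Hist4h4. In 10 of the 13 genes outside Hist1 the MIZ-1WT list therefore held nothing, and in 7 neither list did. Most protein_coding genes also had no MIZ-1WT window peak, and a large part had none in either list.

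How far reads can be placed was measured by counting, over the whole genome, each sequence of 50 bases, the read length, that starts in a window. In the 300 bp before the start, 77.8% to 100% of these sequences occurred once, depending on class and position. Inside the genes the share fell to 10.3% for H3, 16.9% for H2A, 22.6% for H2B and 20.3% for H4, each within 150 to 250 bp after the start, and to 66.7% for H1. These lowest points lay among the H3 and H2A summits. H2A and H2B windows had a second dip near 500 bp before the start, where the coding sequence of the gene on the other side lies.

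**Figure D3:**
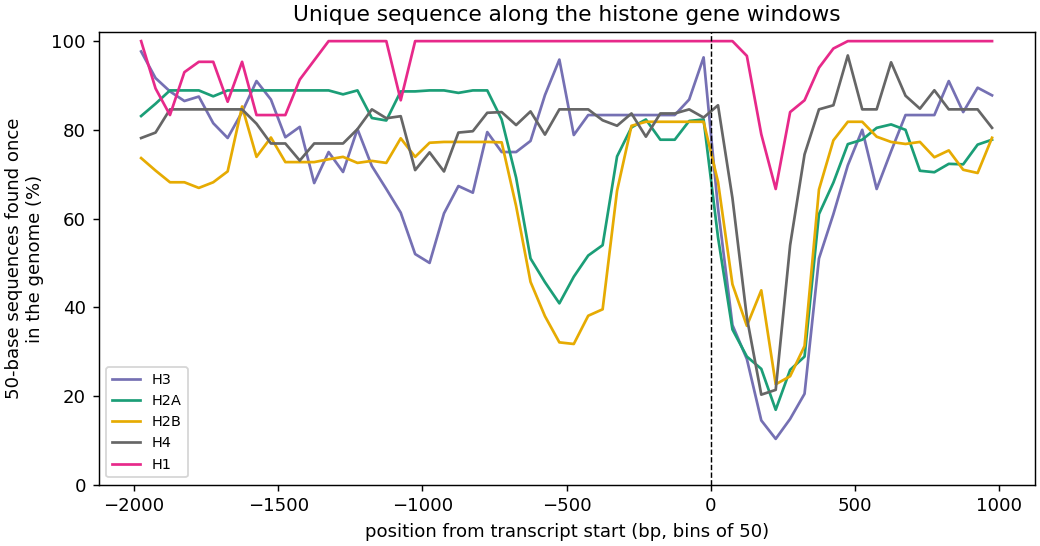
Share of 50-base sequences that occur once in the genome (vertical axis, %), by position from the transcript start in bins of 50 bp (horizontal axis), averaged over the windows of each histone class. H3, H2A, H2B and H4 fall within 250 bp after the start, to 10.3% for H3. H1 dips to 66.7% between 200 and 250 bp after the start.

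All 13 MIZ-1WT summits and 32 of 36 MIZ-1DPOZ summits (88.9%) lay in sequence with several copies, against 3.79% and 5.31% of the window peaks of other protein_coding genes. The median number of copies at a summit was 8 for MIZ-1WT and 8.5 for MIZ-1DPOZ. The 4 single-copy summits, all of the MIZ-1DPOZ list, were those of Hist1h3e (23 fragments), Hist1h1c (13), Hist1h1e (11) and Hist1h1t (10). Among H3 genes only Hist1h3e thus had a single-copy summit, and its MIZ-1WT summit, 32 bp away, lay in sequence with 8 copies. Coding sequences of 8 genes were identical to that of another member: the pairs Hist1h2ao and Hist1h2ap, Hist1h2bq and Hist1h2br, Hist1h4m and Hist1h4n, and Hist2h2aa1 and Hist2h2aa2. The first 6 of these genes lie in a duplicated stretch of the Hist1 cluster, where 0% to 2.75% of the sequences in the 2000 bp before the start occurred once. For Hist1h2ao and Hist1h2ap this share was 0% there and also 0% in the coding sequence. Their MIZ-1DPOZ summits nevertheless had 22 and 27 fragments, which the sequence around them does not assign to 1 gene.

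Copy number moved with the peaks. H2A coding sequences with a MIZ-1DPOZ summit had a median of 12 copies and those without 2, H2B 11 and 4.5, and the H4 gene with a summit 6 and the others 3.5. The ranges overlapped, however. By class, H4 coding sequences had a median of 4 copies and H2B of 7, beside 6.5 for H3 and 10.5 for H2A. Among H2A genes, Hist1h2ab and Hist1h2ae had a median of 12 copies and no summit of their own, as Hist1h2ag and Hist1h2ad did with one. H2A genes with a summit ranged from 4 to 12 copies, and the 7 without from 1 to 12. For H2B the range was 2 to 11 with a summit and 1 to 11 without. Copies were counted for sequences of the read length and not for whole fragments or read pairs. The peak lists hold no reads, so fragments of a gene itself and fragments of its copies were not told apart here. How many could be placed by their mates was not tested.

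Over all members together, the GC content of the coding sequence moved with the peaks as well. Above the median of 65.7% GC over all members, 24 of 32 genes had a MIZ-1DPOZ summit in their own coding sequence and 12 a MIZ-1WT summit. At or below it these were 8 of 35 and 0. All 12 H3 genes lay above it, at 67.2% to 69.9%, and all H2B and H1 genes below it. The split was thus in part one by class. H2A genes with a summit had 67.4% to 70.3% GC (median 69.7%) and those without 61.0% to 69.5% (median 67.2%). H4 genes reached 66.7%, and Hist1h4b was at 66.0%. The median was 65.7% for H4 and 62.7% for H2B, where 1 of 13 and 7 of 18 genes had a MIZ-1DPOZ coding summit. Within H2B the median was 63.5% with a summit and 61.1% without. Around the summits, over 201 bp, the median GC content was 70.6% in the MIZ-1WT windows, where it was 73.6% for the peaks of other protein_coding genes, and 69.7% against 70.6% in the MIZ-1DPOZ windows. The part of GC content in the result was not tested.

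**Figure D4:**
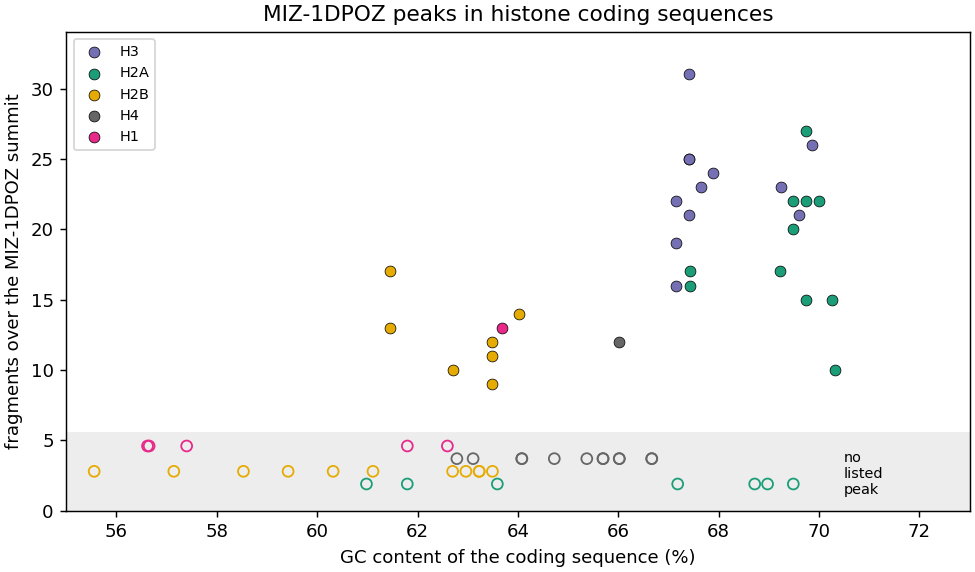
GC content of the coding sequence (horizontal axis, %) and fragments over the MIZ-1DPOZ summit in that coding sequence (vertical axis) for all 67 histone genes, coloured by class. Open circles in the grey band are genes with no listed coding peak and have no vertical value. H3 and H2A genes with peaks gather above 67% GC, between 10 and 31 fragments, and the H4 genes lie below them with 1 filled point.

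Whether the same sites were occupied in both genotypes was examined by overlap. All 13 MIZ-1WT window peaks (100%, Wilson interval 77.2 to 100) overlapped a MIZ-1DPOZ peak, where 73.2% of the MIZ-1WT window peaks of other protein_coding genes did. Paired summits lay 8 to 184 bp apart, with a median of 27 bp. In the other direction, 13 of 36 MIZ-1DPOZ window peaks (36.1%) overlapped a MIZ-1WT peak, beside 41.2% at other genes. The 23 MIZ-1DPOZ peaks without a MIZ-1WT partner had 9 to 26 fragments (median 14). The 13 with a partner had 14 to 31 (median 21).

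At the 13 overlapping pairs, the MIZ-1DPOZ pileup scaled to the depth of the MIZ-1WT library was the higher in every case. The largest ratio was at Hist1h3d, with 8 fragments for MIZ-1WT and 31 for MIZ-1DPOZ, a scaled ratio of 2.89 (exact 95% interval 1.30 to 7.28). Hist1h2ap followed with 8 and 27 fragments and a ratio of 2.52 (1.11 to 6.41). These were the only 2 pairs whose interval lay above equality. Hist1h3h (8 and 24, ratio 2.24), Hist1h2an (8 and 20, ratio 1.86) and Hist2h2aa1 (7 and 17, ratio 1.81) came next. The lowest ratios were at Hist1h2af (11 and 17, ratio 1.15, 0.509 to 2.72), Hist2h3c1 just before its start (8 and 14, ratio 1.31), Hist1h2ai and Hist1h2ad (8 and 15, ratio 1.40 each) and Hist1h3g (11 and 22, ratio 1.49). For 11 of 13 pairs the interval included equality, since each rests on 7 to 11 MIZ-1WT fragments.

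The median log2 ratio over the 13 pairs was 0.78 (order-statistic interval 0.48 to 1.16). This interval describes the spread over pairs of the same libraries. It takes the pairs as independent, although many lie in near-identical copies, and is no measure of a difference between genotypes. Over 5545 pairs in the windows of other protein_coding genes it was 0.11, with 3213 above 0. Restricted to the 184 of those pairs with several copies at both summits it was 0.46, with 140 above 0, and for the 5323 with 1 copy at both it was 0.09. Multi-copy pairs of other genes thus lay between the histone pairs and the single-copy pairs. Divided by the local background of each peak instead of the library depth, the histone median fell to 0.41 with 10 of 13 above 0, where that of the other genes was −0.16. By class, the 6 H3 coding pairs had a median of 0.79 and the 6 H2A coding pairs 0.67.

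**Figure D5:**
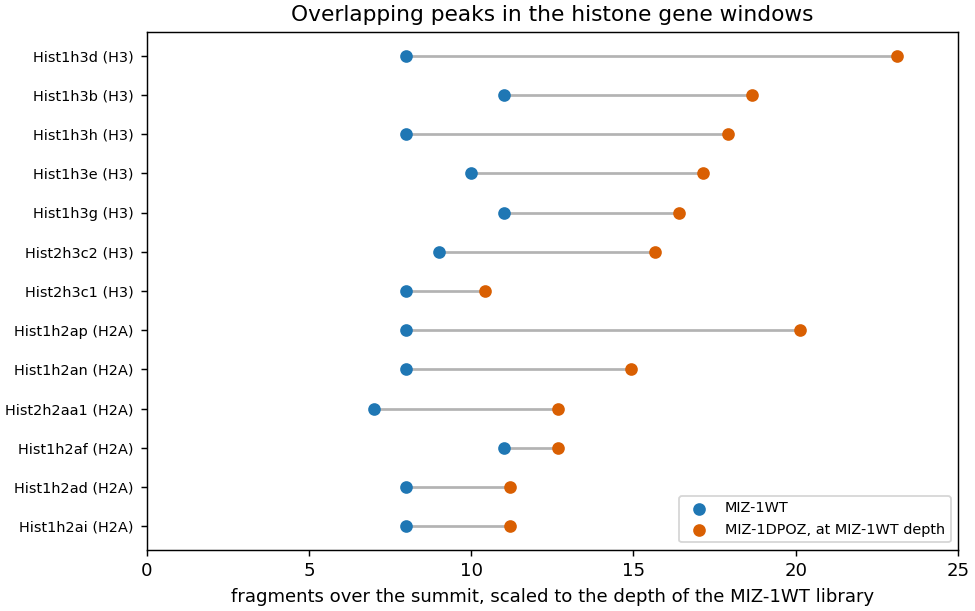
Fragments over the summit at the 13 overlapping peak pairs of the histone windows, with MIZ-1DPOZ values scaled to the depth of the MIZ-1WT library (horizontal axis), ordered by class and scaled value (vertical axis). Every MIZ-1DPOZ point lies to the right of its MIZ-1WT point, from Hist1h2af (11 and 12.7) to Hist1h3d (8 and 23.1).

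The stretches in front of the histone genes carry short motifs known for these promoters, and they are where few summits fell. The octamer, bound by the POU factors OCT1 and OCT2, the CCAAT box, bound by NF-Y, and the TATA box were searched in the 250 bp before each start, on both strands for the first pair (ATTTGCAT or ATGCAAAT, and CCAAT or ATTGG) and on the strand of the gene for TATAAA. The octamer was found before 15 of 71 histone starts (21.1%), 7 of 18 for H2A and 8 of 22 for H2B, and before 1.48% of all protein_coding starts. H3, H4 and H1 had 0 matches. The 12 back-to-back pairs have starts 176 to 306 bp apart, so 1 octamer or CCAAT match can count for both genes. The 22 H2B starts also belong to 18 genes. The H2A and H2B counts are therefore not counts of separate sites. CCAAT was found before all 18 H2A and all 22 H2B starts and before 81.7% of all histone starts, against 33.9% in general, and TATAAA before 38.0% against 7.13%. The stretch between Hist1h2ac and Hist1h2bc, whose genes had 22 and 14 MIZ-1DPOZ fragments in their coding sequences, is shown in full as an example of such a shared promoter without a summit, with these motifs in capitals (TTTATA is TATAAA on the strand of Hist1h2ac).
Hist1h2ac to Hist1h2bc (chr13:23683949-23684198, + strand): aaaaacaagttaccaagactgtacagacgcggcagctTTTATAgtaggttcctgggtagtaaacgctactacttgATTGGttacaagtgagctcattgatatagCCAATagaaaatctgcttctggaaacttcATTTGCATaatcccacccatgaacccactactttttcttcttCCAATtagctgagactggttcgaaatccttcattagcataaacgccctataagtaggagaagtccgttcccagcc
A match is only a match of letters, and these motifs are counted here without regard to binding.

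The genes whose products make and process histone messages and load histones were set beside the clusters, as a list chosen from their known functions. Of these 27 genes, 14 had a MIZ-1WT window peak and 22 a MIZ-1DPOZ window peak, beside backgrounds of 30.9% and 48.7% of genes, and 13 had both. The strongest summit of each gene in each peak list lay in single-copy sequence. Npat, the coactivator of the clusters at the histone locus body, had 2 window peaks, both of the MIZ-1DPOZ list, with 14 fragments at −2113 bp from the start (a summit just outside the window) and 8 fragments at 190 bp. Casp8ap2, its partner in that body, had 9 fragments for MIZ-1WT and 13 for MIZ-1DPOZ. Hinfp, an activator of H4 genes, had a MIZ-1DPOZ peak only, with 22 fragments 101 bp after the start, the highest pileup of this list. Strongest summits of the list fell on both sides of the start, from −2113 bp at Npat to 677 bp at Ccne1.

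Among the processing factors, Lsm11 had 8 and 15 fragments (here and below the strongest window peak of each list, MIZ-1WT first, which can lie at different positions), Cpsf2 8 and 9, Sympk 9 and 10, and Eri1, a nuclease that trims histone messages, 11 and 8. Cpsf3 (13) and Zfp473 (7) had a MIZ-1DPOZ peak only. Slbp, which binds the stem-loop, and Lsm10 had none. Of the octamer and CCAAT factors, Pou2f1 had 9 and 17 fragments, Nfya 10 and 10, and Nfyb 12 and 15. Pou2f2 (10) and Nfyc (9) had a MIZ-1DPOZ peak only and Pou2af1 had none. Both lists thus held peaks at genes of each kind.

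Among the cell cycle genes that start histone transcription, Ccne1 had 11 and 18 fragments, Ccne2 11 and 12, and E2f1 7 and 12. Cdk2 had a MIZ-1WT peak only (9) and Ccna2 a MIZ-1DPOZ peak only (14). Of the histone chaperones, Asf1a had 11 and 12 fragments and Nasp 7 and 11, Chaf1a and Chaf1b had 9 in the MIZ-1DPOZ list only, and Asf1b had none. Paired in the same way as the histone peaks, the windows of 12 of these genes held 13 overlapping pairs, with depth-scaled ratios from 0.597 at Eri1 (10 and 8 fragments) to 1.60 at the downstream pair of Nfyb (7 and 15). Of these ratios 6 lay above 1 and 7 below, and each interval of those named here included equality, that of Eri1 from 0.205 to 1.68.

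The replication-independent histone genes, which supply variants outside S phase, were compared as a second list. Of 11 genes, 8 had a MIZ-1WT window peak, against a background of 30.9%, and 11 a MIZ-1DPOZ window peak, against 48.7%. H1f0 had the highest MIZ-1WT pileup, with 14 fragments beside 13 for MIZ-1DPOZ, and H3f3a had 13 and 11. H3f3b had 9 and 15, H2afx 7 and 14, H2afj 7 and 18, H2afy 9 and 16, H1fx 10 and 12, and H2afz 7 and 15. Overlapping pairs were found in the windows of 7 of these genes, 8 pairs in all, with scaled ratios from 0.574 to 1.49, of which 4 lay above 1 and 4 below. H2afv, H2afy2 and Cenpa had 11 fragments each in the MIZ-1DPOZ list only. In each peak list, the strongest summit of every one of these genes with a peak was in single-copy sequence. H3f3a and H3f3b thus had a MIZ-1WT peak at unique sequence, which no clustered H3 gene did.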

How the data were processed

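ChIP-seq of MIZ-1 had been performed on B220+ splenocytes fixed in 1% formaldehyde, with 50-base paired-end reads. The authors trimmed reads with Trimmomatic, aligned them to mm10 and ran MACS2 on each genotype alone to call narrow peaks. The study's methods name bwa as the aligner, whereas the submitters' processing notes name Bowtie2 2.2.6 and MACS2 2.1.0, and which made these files is not known. Duplicate and multi-mapping reads and the q cutoff are not given in the sources used here. The values the authors deposited per peak are the fold enrichment of the summit against its surroundings, which is a ratio, with the p-value and q-value as −log10. Reads and input libraries were not used here.

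Peaks and genes were joined on the GENCODE basic annotation (vM21) of GRCm38, where a gene counted when any base of a peak lay in its window, and lists were set against each other by overlaps of at least 1 bp. Whole-number pileups and local backgrounds were solved from fold and −log10 p under MACS2's formulas, for 99.97% of MIZ-1WT and 99.99% of MIZ-1DPOZ peaks, and the solver was tested on simulated scores. The depth ratio came from the most frequent background (0.860 and 1.348 fragments) divided by the smallest peak width (148 and 173 bp). A sequence of 50 bases was counted on both strands of 22 chromosomes, and a summit was single-copy when the median of 5 such counts around it was 1. Coding identity was compared within classes. Shares carry Wilson intervals, ratios an exact binomial interval that takes the depth ratio as known, and no test was made between genotypes.

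The histone genes, both gene lists and the alternatives were chosen with earlier results of these data known. Genes were named by rule: all Hist2, Hist3 and Hist4 genes, per class the 2 genes with the top −log10 q of either list, the 5 pairs with the highest and the 5 with the lowest ratios, the testis genes and both lists. Genes named outside it (members of back-to-back pairs, of identical pairs, with single-copy summits or touched only by a neighbour's peak) were chosen after their values were seen, as were the GC comparison, the requirement of a summit in the gene's own coding sequence and the split of pairs by class. Scripts ran in Python 3.11.15 with Biopython 1.88, matplotlib 3.10.9, numba 0.67.0, numpy 2.4.6, scipy 1.17.1 and pandas 2.3.3.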

Additional observations from a re-analysis of the deposited data

How the results depend on the processing

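Direction held in every alternative that gave a value: the MIZ-1DPOZ list held peaks at more histone genes than the other list. This direction is not particular to histone genes. Over all protein_coding genes the shares as reported were 48.7% and 30.9%, and the MIZ-1DPOZ list was longer. Shares over all genes under the alternatives are not given here, except where a summit was required in the gene's own coding sequence. The MIZ-1WT counts were the less stable. With −log10 q limited to 5 or more, and also with fold limited to 5 or more, 4 genes had a MIZ-1WT peak and the same number had both. When a peak counted only for the gene of the nearest start, 11 genes had a MIZ-1WT peak, 29 a MIZ-1DPOZ peak, 10 both and 37 neither. With single-copy summits only, the counts were 0, 5, 0 and 62, and no share of overlapping peaks or ratio could be formed. With a summit required in the gene's own coding sequence, 35 genes had neither. Dividing by local background lowered the median log2 ratio to 0.41. A window of 500 bp to each side, summits in place of whole peaks, lists of equal length and a reciprocal overlap of 50% kept the counts over all histone genes within 1.5 times, although lists of equal length left 1 H2B gene of 7 with a MIZ-1DPOZ summit in its coding sequence. No paired analysis was possible because there was only 1 ChIP library per genotype, and for the same reason no library could be left out. MIZ-1WT window peaks rest on 7 to 11 fragments, which limits their precision.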

Other observations

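Between the histone windows, the 2 parts of the Hist1 cluster held 6 further MIZ-1WT peaks and 17 further MIZ-1DPOZ peaks, and the Hist2, Hist3 and Hist4 clusters held 0. The highest, with 35 fragments, lay at chr13:21816945-21817186, one of 5 MIZ-1DPOZ peaks between 21813103 and 21818792 in the stretch of duplicated genes, with 23 to 35 fragments, 19 to 56 copies at the summit and folds of 2.80 to 4.81. At chr13:21767019-21767467, in repeat sequence of 73 copies, the MIZ-1DPOZ peak had 34 fragments and the overlapping MIZ-1WT peak had 8. By contrast, the peaks in Pom121l2, a single-copy gene inside the first part, had 9 fragments for MIZ-1WT and 17 for MIZ-1DPOZ and overlapped.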
